A study of Mus musculus with 3 samples.

Results

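Sox genes encode transcription factors, and 10 of them (Sox2, Sox3, Sox4, Sox9, Sox11, Sox12, Sox13, Sox15, Sox18 and Sox21) were followed in mouse embryonic stem cells (mESCs) treated with an inhibitor of MEK. The genes were chosen by symbol, and every array probe whose accession, without its version, maps to one of these symbols was taken. This gave 13 probes, 1 for each of 7 genes and 2 each for Sox4, Sox11 and Sox21, among 27235 probes and 20660 genes that could be named. The cells were J1 mESCs, a line of strain 129S4/SvJae derived from the inner cell mass of the blastocyst. They were grown without feeders on gelatin in Knockout DMEM with Knockout Serum Replacement and leukemia inhibitory factor (LIF) at 1000 U/mL, and were exposed to 1 µM PD0325901 (PD) for 24 h. PD blocks the kinase MEK, which activates ERK, a kinase whose activity primes mESCs for differentiation. All 3 samples belong to this 1 group, as replicates 1 to 3, and each was hybridised in 1 colour to its own Agilent array. Untreated cells were not analysed here, so the values below are levels in PD-treated cells and say nothing about a change with PD.

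All Sox proteins bind DNA through an HMG box related to that of Sry, which bends the double helix at a short A/T-rich motif. The family is divided into subgroups by sequence. SoxB1 proteins, to which Sox2 and Sox3 belong, activate transcription, and Sox2 pairs with the POU factor Oct4 at composite motifs to hold mESCs in the pluripotent state. Sox21 is a SoxB2 protein and mostly represses. Sox4, Sox11 and Sox12 form SoxC and act in progenitors of neurons and other tissues, Sox13 is a SoxD protein without an activation domain of its own, Sox9 is the SoxE regulator of cartilage and testis, Sox18 a SoxF regulator of endothelium, and Sox15 the only SoxG protein in mammals.

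The sequence upstream of these genes is given first, because it shows how unlike their promoters are. RefSeq promoters of GRCm38.p6 were matched for 7 of the 10 genes, namely Sox2, Sox4, Sox11, Sox12, Sox13, Sox15 and Sox21, and the 250 bases before the start of transcription were read. Their GC content ran from 50.8% to 74.4% with a median of 65.2%, against a median of 52.4% over 32851 promoters. They held 5 to 35 CpG dinucleotides (median 17, against 6 over all promoters). The following 3 are shown as the promoter of the best-known pluripotency factor (Sox2), the one with the fewest CpGs (Sox15) and the one with the most (Sox12). Capitals mark each match, on either strand, to the octamer of POU factors (ATGCAAAT), to the HMG box cores ACAAAG and ACAATG, to the GC box of Sp1 (GGGCGG) and to the TATA box (TATAAA).
Sox2, chr3:34649745-34649994, plus strand: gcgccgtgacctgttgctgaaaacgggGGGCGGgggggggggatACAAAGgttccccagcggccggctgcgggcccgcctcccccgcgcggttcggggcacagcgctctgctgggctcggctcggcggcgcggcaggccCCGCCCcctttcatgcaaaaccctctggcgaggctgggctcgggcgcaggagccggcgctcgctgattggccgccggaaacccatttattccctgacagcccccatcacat
Sox15, chr11:69654787-69655036, plus strand: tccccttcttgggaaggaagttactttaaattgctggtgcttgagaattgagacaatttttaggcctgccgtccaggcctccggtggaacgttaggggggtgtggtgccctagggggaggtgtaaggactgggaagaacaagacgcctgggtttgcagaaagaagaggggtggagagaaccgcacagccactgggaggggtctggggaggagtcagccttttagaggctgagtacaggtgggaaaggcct
Sox12, chr2:152398047-152398296, minus strand: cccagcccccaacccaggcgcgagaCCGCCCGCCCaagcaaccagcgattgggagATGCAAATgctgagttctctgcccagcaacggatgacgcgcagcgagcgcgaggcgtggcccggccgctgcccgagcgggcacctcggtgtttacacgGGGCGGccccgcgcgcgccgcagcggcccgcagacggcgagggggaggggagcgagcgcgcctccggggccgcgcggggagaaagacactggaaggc

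The Sox12 promoter was the only one of the 7 with the octamer, 195 bases before the start, a motif found in 1.60% of all promoters. It also held 3 GC boxes, those at 225 and 221 bases overlapping, and the third at 97 bases. In the Sox2 promoter ACAAAG lay 206 bases before the start, between GC boxes at 223 and 111 bases, and no other of the 7 held this core, which occurs in 16.5% of promoters. ACAATG (3512 of 32851 promoters) and TATAAA (12.4%) were found in 0 of the 7, and the GC box (32.7%) in Sox2, Sox11 and Sox12. The Sox15 promoter, at 55.6% GC and 5 CpGs, held none of the 5 motifs. A match describes these letters only, and its absence says only that they are not in this window.

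The arrays were alike in brightness, and the markers of the labelled cell type were present. The 75th percentile of signal fell between 512 and 554 on the 3 arrays, 35124 to 36311 of 55681 probes were well above background on each, and no spot was saturated. All 8 markers of embryonic stem cells examined (Pou5f1, Nanog, Esrrb, Zfp42, Klf4, Tfcp2l1, Sall4 and Dppa5a) were well above background on every array, as were 72.7% of all named genes. Most markers of some other lineages passed too, so detection alone does not single out the label. Levels below are log2 of the processed signal relative to the 75th percentile of the array, which is 0. The brightness of a probe depends on its own sequence too, so levels of different genes were not tested against each other.

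Of the 10 Sox genes, 9 gave a signal well above background on each array (90%), where 72.7% of all named genes did, and Sox9 was the exception. Of the 12 detected Sox probes, 5 were above the 75th percentile on every array, those of Sox2, Sox3, Sox13 and Sox15 and 1 of Sox4. The share of all detected probes above it was not counted, so the 5 only describe these probes. The 9 genes represent every Sox subgroup in the set but SoxE. With so few genes, 1 gene more or fewer moves the share by 10 percentage points, and no test was made on it.

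**Figure D1:**
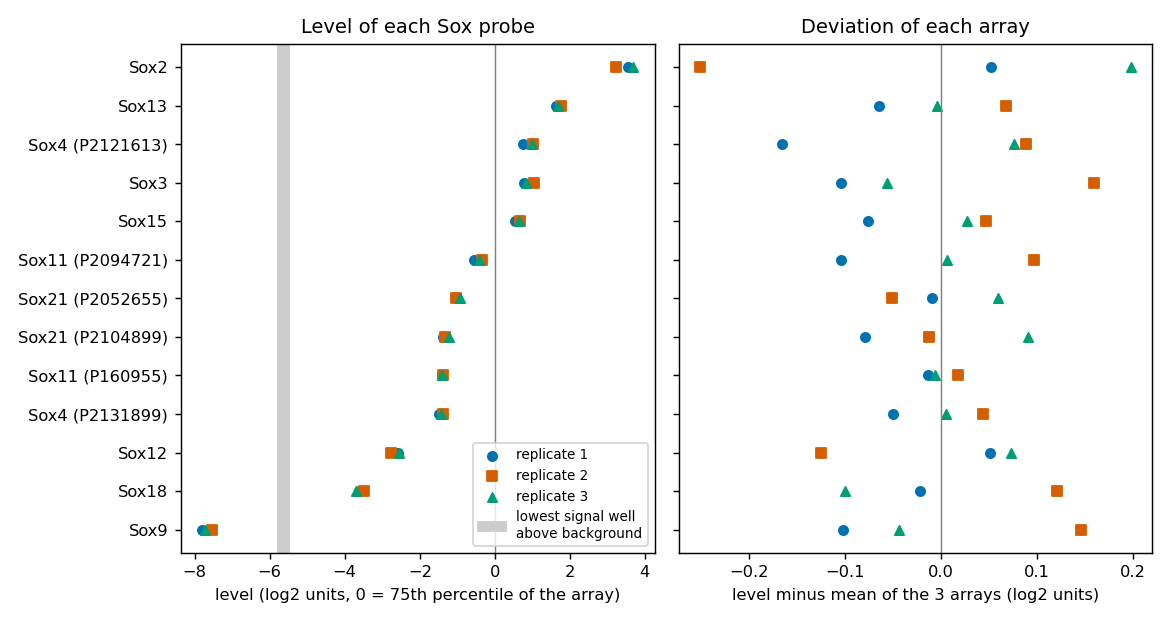
Left, level of each probe of the 10 Sox genes on the 3 arrays (log2 units, 0 is the 75th percentile of the array). The grey band spans the lowest signals well above background. Right, the same levels minus the mean of the 3 arrays. Symbols are replicates 1 to 3, and part of the probe name is given where a gene has 2 probes. Sox9 alone lies below the band, and the largest deviation at right is that of Sox2 on replicate 2.

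Sox2, the SoxB1 factor that acts with Oct4, was bright on every array. Its probe, A_52_P307739, had processed signals of 6453 on replicate 1, 4835 on replicate 2 and 6827 on replicate 3, which are 639, 423 and 665 times the lowest signal well above background. Replicate 2 was the low one, and the other two lay close together. The levels were 3.54, 3.24 and 3.69, with a mean of 3.49 ± 0.23 (SD, n = 3 here and below), and placed Sox2 above 90.7% to 92.3% of the probes of each array. Its coefficient of variation, 17.5%, was the largest of the 12 detected Sox probes.

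The departure of replicate 2 was then set against the error that the scanner software gives for a single spot. For Sox2 this error was 0.14 log2 units, and replicates 2 and 3 were 2.20 combined errors apart, against 1.48 for replicates 1 and 2 and 0.71 for 1 and 3. The software gave nearly the same error, 0.1443, for Sox2, Sox3 and Sox13. It was not checked against repeated spots, so counts of combined errors here and below are a common scale and not a measured noise of each spot. It was the only detected Sox probe, 1 of 12 (8.33%), with a pair of arrays more than 2 combined errors apart, where 10.5% of detected single-spot probes had such a pair. Among 1980 detected probes within 0.5 log2 units of its level, the SD of Sox2 was larger than 96.4%, and their median SD was 0.059. Replicate 2 lay at -0.38 log2 units from the mean of the others, or 22.9% lower, and between -0.45 and -0.34 under the other scalings. The spot of Sox2 lay outside the 6 blocks of the array in which replicate 2 had many non-uniform spots. The probe had 1 spot per array, so a sample difference and a spot error cannot be told apart.

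Sox3, the other SoxB1 gene of the set and one expressed in early neural progenitors, had signals of 952, 1057 and 941. Replicate 2 was the highest here, and replicates 1 and 3 were nearly equal. The mean level was 0.89 ± 0.14, above 79.4% to 80.7% of the probes of an array. This SD exceeded that of 88.6% of probes at a similar level, but no pair of arrays was more than 1.29 combined errors apart. The probe of Sox3 lay in a block with many non-uniform spots on replicate 2, and the part of this in its spread was not tested.

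Sox21, the SoxB2 gene, was measured by 2 probes that gave similar values. A_55_P2052655 had signals of 276, 248 and 277 (mean 267 ± 16.4), and A_55_P2104899 had 211, 204 and 227 (mean 214 ± 11.7). Both were lowest in signal on replicate 2, though after scaling the second was lowest on replicate 1. The first was 0.32 ± 0.06 log2 units above the second, a ratio of 1.25. Of 3247 genes with 2 detected probes, 11.5% had a smaller gap, and the median gap was 1.95.

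The SoxC genes Sox4 and Sox11 were each measured by 2 probes that disagreed in brightness. For Sox4, A_55_P2121613 gave 939, 1036 and 1062 (level 0.93 ± 0.14) and A_55_P2131899 gave 198, 195 and 197 (level -1.43 ± 0.05). The brighter probe was 2.36 ± 0.10 log2 units above the dimmer one, with gaps of 2.25, 2.41 and 2.43 on the 3 arrays, which is a ratio of 5.14. The probes thus differed far beyond their spread over arrays, and one put Sox4 above the 75th percentile and the other below it. Such a gap was common on this array, since 57.8% of genes with 2 detected probes had a smaller one.

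The Sox4 probes also differed in how much they varied. The brighter one was lower on replicate 1 than on both others, and its SD exceeded that of 89.2% of probes at a similar level. The dimmer one had a coefficient of variation of 0.665% in signal before scaling, the smallest of the Sox probes. The SD of its scaled level, 0.05, exceeded that of 17.9% of probes at its level. By that measure the smallest was the 0.016 of A_52_P160955 of Sox11.

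For Sox11, a SoxC gene of developing neurons, A_55_P2094721 gave 380, 404 and 393 (level -0.44 ± 0.10). The second probe, A_52_P160955, gave 208, 196 and 200 (level -1.40 ± 0.02). Replicate 2 was the brightest for the first and the dimmest in signal for the second. The gap between them was 0.96 ± 0.09 log2 units, a ratio of 1.95, and 28.9% of genes with 2 detected probes had a smaller one. The SD of the second probe was larger than that of only 2.21% of probes at its level. The first lay in a block with many non-uniform spots on replicate 2.

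Sox12, the third SoxC gene and the one with the octamer in its promoter, was dim but detected. Its probe, A_66_P115541, had levels of -2.58, -2.75 and -2.56, from signals that were 9.18, 6.64 and 8.76 times the lowest signal well above background. Replicate 2 was the lowest, as for Sox2, and replicates 1 and 3 were close. The mean level was -2.63 ± 0.11, and this SD was larger than that of 43.6% of probes at its level, where the median was 0.12.

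Sox13 and Sox15 were the most even of the brighter genes. Sox13, the SoxD gene, had signals of 1706, 1728 and 1702 at A_55_P2094731, which differ by less than the scanner error (level 1.69 ± 0.07, coefficient of variation 0.824%). Sox15, the SoxG gene, which can occupy Sox2 sites together with Oct4, had signals of 812, 817 and 834 at A_55_P2094691 (level 0.63 ± 0.07, coefficient of variation 1.41%). No array stood apart in either. The probe of Sox13 lay above 83.6% to 84.2% of an array's probes, and that of Sox15 above 78.2% to 78.7%.

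Sox18, the SoxF gene of endothelial and lymphatic cells, was detected at a low signal. A_51_P472274 had signals of 45.0, 45.9 and 40.8, or 4.46, 4.02 and 3.97 times the lowest signal well above background. No array stood apart, and no pair was more than 0.957 combined errors apart. The level was -3.60 ± 0.11, near the middle of the array, above 50.7% to 51.8% of its probes.

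Sox9, the SoxE gene of cartilage and testis, did not rise above background in any sample. Its probe, A_52_P214630, was printed in 10 spots, and 0 of them passed on any array. The spots ran from 2.04 to 3.35 on replicate 1 (median 2.43), from 2.29 to 3.14 on replicate 2 (median 2.73) and from 2.09 to 2.77 on replicate 3 (median 2.50). The 308 negative control spots of the same arrays had medians of 2.42, 2.75 and 2.48, so the Sox9 spots lay among them. The mean signals of 2.49, 2.73 and 2.48 were 0.24 to 0.25 times the lowest signal well above background. With the looser flag for a positive and significant signal, 2 of the 10 spots passed on replicate 1 and 0 on the others. The level of -7.69 ± 0.13 is a value at the floor of the array and has no order among other values there. A Sox9 transcript below this floor cannot be seen by the array.

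**Figure D2:**
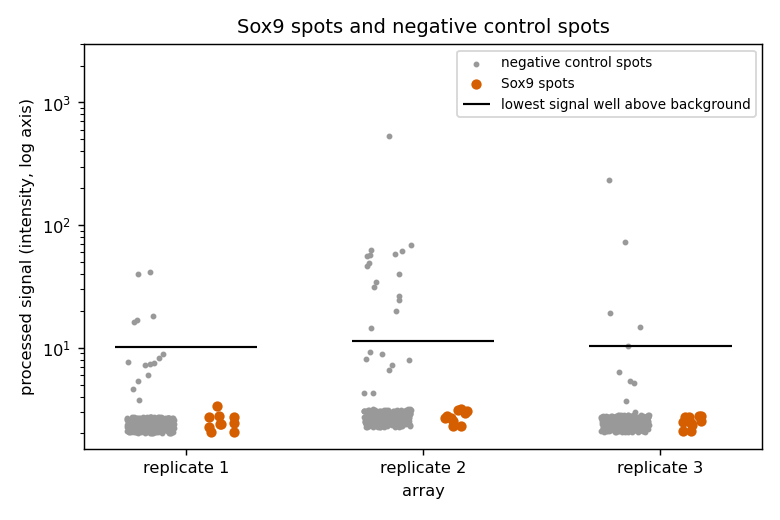
Processed signal (intensity, log axis) of the 10 Sox9 spots (orange) and the 308 negative control spots (grey) on each array, with the points spread sideways for legibility. The black line is the lowest signal well above background, at 10.1, 11.4 and 10.3. All Sox9 spots lie under the line, whereas 5, 16 and 4 negative control spots were well above background.

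The spread of the Sox genes over the 3 samples was close to that of all detected probes. Of the 12 detected Sox probes, 0 ranged over more than 1 log2 unit, where 1.85% of all detected probes did. Their median SD was 0.093 log2 units (0.016 to 0.23), and that of all 33474 detected probes was 0.091. Without replicate 2 the median over the Sox probes was 0.052. At a similar level, 5 of the 12 had an SD above the median of their neighbours. The array farthest from the others was replicate 2 for 6 probes, replicate 1 for 4 and replicate 3 for 2, and over all detected probes replicate 2 was farthest in 41.8%. Sox9 was the only Sox gene of the set with several spots, and since it was not detected, the arrays were not compared with an error between spots.

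Which sample was highest depended in part on how the arrays were scaled. Under all scalings tried, the same replicate was highest for 5 of the 12 probes and the same was lowest for 8. Both held for Sox2 (highest on replicate 3, lowest on 2), Sox3 (highest on 2, lowest on 1) and Sox12 (highest on 3, lowest on 2). For the remaining 9 probes the highest or the lowest sample changed with the scaling. These counts were not made over all detected probes, so whether they are usual for the array is not known. An order that held under every scaling is not thereby settled, since each scaling reads the same single spots. No pair of arrays was more than 0.93 combined errors apart for Sox12, or 1.29 for Sox3.

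**Figure D3:**
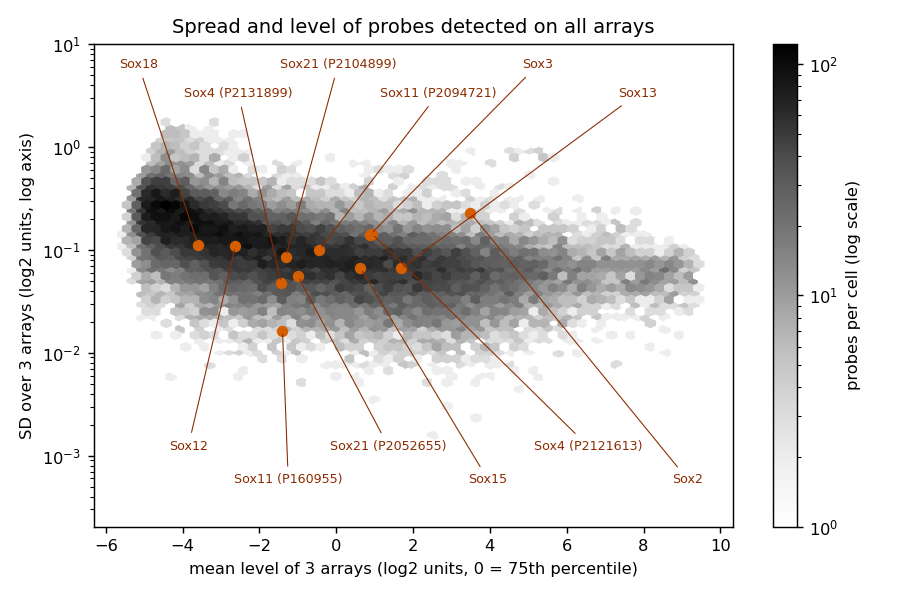
SD over the 3 arrays (log2 units, log axis) against mean level (0 is the 75th percentile) for the 33474 probes detected on all arrays, in grey cells shaded by the number of probes on a log scale. The 12 detected probes of the Sox genes are in orange. Sox2 lies above most probes of its level, with an SD of 0.23, and A_52_P160955 of Sox11 below, at 0.016.

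The remaining 10 members of the family on the array were read in the same way. Of these, 7 were detected (70%, near the 72.7% of all named genes), which makes 16 of 20 for the whole family. Not detected were Sox6, which drives cartilage with Sox5 and Sox9, Sox8, a relative of Sox9, and Sox30, a gene of male germ cells. Sox30 had signals of 8.42, 10.2 and 7.65, close under the lowest signal well above background, and passed the looser flag on all arrays. Sox6 and Sox8 had signals between 2.46 and 2.81, at the level of the negative controls.

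Sox10, the SoxE gene of neural crest, was detected, whereas its relatives Sox8 and Sox9 were not. It had signals of 117, 123 and 119 (level -2.15 ± 0.09), and its probe lay in a block with many non-uniform spots on replicate 2. The SoxF genes of endoderm and endothelium were detected along with Sox18. Sox7 had signals of 146, 146 and 135 (level -1.90 ± 0.09). Sox17, by its brighter probe, had 54.6, 52.2 and 59.1 (level -3.27 ± 0.09), and by its dimmer one 28.7, 32.2 and 26.8. Neither gene had a sample apart from the others.

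Sox1, the third SoxB1 gene and a marker of neural progenitors, gave 635, 591 and 574 at A_55_P2012056 (level 0.17 ± 0.05). Its other probe, A_55_P2012051, gave 158, 155 and 204, with replicate 3 more than 2 combined errors above replicate 1. The brighter probe did not share this rise, and the gap between the probes narrowed from 2.01 and 1.93 to 1.49 on replicate 3. Sox14, a SoxB2 gene like Sox21, had signals of 39.6, 47.8 and 54.0 (level -3.51 ± 0.27), with replicates 1 and 3 also more than 2 combined errors apart. Sry, the founder of the family on the Y chromosome, had signals of 21.4, 18.3 and 24.3 (level -4.65 ± 0.18), 1.60 to 2.37 times the lowest signal well above background.

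Sox5, a SoxD gene like Sox13, was the member with the widest disagreement between probes. A_55_P2156905 gave 19247, 17883 and 20872 (level 5.18 ± 0.10), above 96.0% to 96.3% of the probes of each array. A_51_P500318 gave 5.67, 2.25 and 2.06 and was detected on none of the arrays. The call that Sox5 was detected therefore rests on 1 of its 2 probes, and that probe lay in a block with many non-uniform spots on replicate 2. Of 5476 genes with several probes, 991 likewise had some detected and others not.

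**Figure D4:**
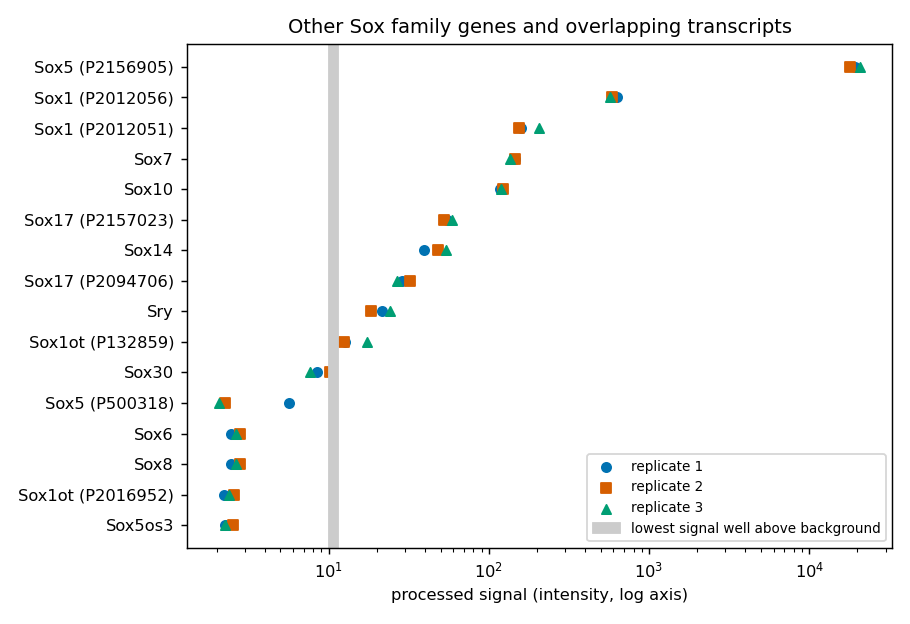
Processed signal (intensity, log axis) on the 3 arrays for the probes of the other 10 Sox family genes and of 2 overlapping transcripts. The grey band spans the lowest signals well above background. The brighter probe of Sox5 lies at the top of the plot and the dimmer one below the band, and Sox30 and 1 probe of Sox1ot lie near the band.

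Of 5 noncoding transcripts named after the Sox gene they overlap, 2 had a probe. Sox1ot was well above background on 1 array at A_66_P132859, with signals of 12.7, 12.4 and 17.5, and on none at its other probe. Sox5os3 had signals of 2.26, 2.53 and 2.25 and was not detected. No probe matched Sox2ot, in whose intron Sox2 lies, or Sox5os4 or Sox6os.

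Genes whose proteins act with Sox proteins were detected in 9 of 12 cases (75%), near the 72.7% of all genes. Pou5f1, which encodes Oct4, had levels of 4.35, 5.04 and 4.27, so that replicate 2 was the highest for Oct4 and the lowest for Sox2. The POU genes that pair with Sox proteins in other tissues differed among themselves. Pou3f1, of epiblast and glia, had a level of 0.97 ± 0.08, whereas Pou3f2, which works with Sox2 and Sox11 in neural cells, was detected on no array and its relative Pou3f3 on 1. Pou3f3 had levels of -6.37, -3.08 and -7.20, the high value being on replicate 2. On that array 16 of 308 negative control spots were well above background, against 5 on replicate 1 and 4 on replicate 3. Mef2c, a partner of Sox18 in endothelium, was not detected either, and Pax6, a partner of Sox2 in the lens, was detected at -1.80 ± 0.05.

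All 10 genes known as targets of Oct4 and Sox2 in embryonic stem cells were detected, where 72.7% of all named genes were. Fgf4, whose enhancer holds the classic Oct4 and Sox2 composite site, had levels of 6.33, 6.33 and 6.22. Fbxo15 had 5.53, 5.55 and 5.56, and Utf1, a chromatin factor of pluripotent cells, had 5.62, 5.74 and 5.67. With this scaling 6 of the 10 targets were lowest on replicate 1, 3 on replicate 3 and 1 on replicate 2, the sample in which Sox2 was lowest. The 1 target lowest on replicate 2 was Tdgf1, with levels of 4.75, 4.74 and 4.83, the first 2 of which are nearly equal. Apart from Pou5f1, the SDs of the targets ran only from 0.01 (Fbxo15) to 0.07 (Dppa5a). The order of the targets was not read under the other scalings. The share of all detected probes lowest on each array was not counted, so whether the targets follow Sox2 was not tested. Lefty1 had a level of 4.51 ± 0.05, Zscan10 of 3.70 ± 0.07, Dppa4 of 3.55 ± 0.04, Dppa5a of 8.55 ± 0.07 and Nanog of 0.38 ± 0.05. Pou5f1, itself among the targets, varied most of the 10, with an SD of 0.42.

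Of 8 genes known as targets of other Sox proteins, 5 were detected (62.5%), against 72.7% of all named genes. Col2a1 and Acan, the cartilage matrix genes that Sox9 activates, had levels of 0.89 ± 0.16 and -0.41 ± 0.12 in samples where Sox9 was at the floor. Of the SoxC targets, Tubb3, a tubulin of neurons, had 2.76 ± 0.06 and Tead2, a Hippo pathway factor, 5.50 ± 0.02, while the neuronal gene Dcx was not detected. Of the SoxF targets, Cldn5, a tight junction gene of endothelium, had -1.94 ± 0.14 and Vcam1, an adhesion molecule, was not detected. Amh, the hormone gene that Sox9 activates in the testis, was not detected.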

How the data were processed

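Total RNA of PD-treated J1 mESCs (1 group), prepared in 3 independent experiments per the study's methods, was hybridised in 1 colour, 1 array per sample, on 1 slide per the file headers. The authors deposited spot intensities from Agilent Feature Extraction (10.7 per the labels, 10.7.3.1 per the file headers), background-subtracted and detrended within each array and not normalized between arrays. They also deposited a table of log2 values, normalized between arrays by a method not given in the sources used here, which served as an alternative.

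Levels are log2 intensities, averaged over the unflagged spots of a probe, less the 75th percentile of non-control probes on that array. A probe was detected if at least 50% of its spots were well above background on each array, and the probe with the highest mean stood for its gene where genes were counted. Differences between arrays were divided by the combined scanner errors (the square root of the sum of squared errors, as the deposited error intensities give them). Marked blocks are the 6 of 48 array blocks (8 by 6) with at least 10 non-uniform spots on replicate 2. Accessions were named through RefSeq genes (GRCm38.p6), and since the array grid refers to mm9, no gene coordinates are given beyond those of the RefSeq promoters. Python 3.11.15 and R 4.3.3 with limma 3.58.1 (for normexp, offset 50, on median signals) were used, and the steps were tested on simulated data.

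Having 3 arrays limits the precision of means and SDs, and no test between conditions was possible. The Sox genes, the lists of markers, partners and targets and the motifs were chosen with earlier results of these data known. All Sox genes of the array were named, with the partners and targets on which a count turns. Alternatives were other scalings, normexp, quantile normalization, the deposited table, a looser flag, other rules for probes of a gene, spots kept or left out, and leaving out each replicate.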

Additional observations from a re-analysis of the deposited data

How the results depend on the processing

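No paired analysis was possible because a single group was measured. The 9 detected Sox genes stayed 9 under the looser flag, under both other rules for genes with 2 probes and without any 1 replicate. Of these, only the looser flag could have changed the count. Leaving out a replicate cannot lower it, both probes of each gene with 2 probes were detected, and Sox9 passed on no array. The looser flag raised the share over all named genes from 72.7% to 81.1%. For the other 10 family genes the count was 8 with the looser flag, since Sox30 passed it, 6 when all probes of a gene had to be detected, since Sox5 failed it, and 7 otherwise. No Sox probe (0) ranged over more than 1 log2 unit under any alternative, including all 13 probes without a filter on dim ones. Leaving out a replicate cannot widen a range. The median SD of 0.093 log2 units ran from 0.052 (without replicate 2) to 0.097 (without replicate 3) on leaving out single replicates, and was 0.075 after normexp correction, 0.075 over the 10 probes outside the marked blocks and 0.10 without the filter. Of the alternative levels of the 13 probes, 118 moved by less than the SD over replicates, and the other 10 were all after normexp correction. Many of the 118 could not have moved further. Scaling by the array median or by detected probes keeps the mean level by construction, and leaving out 1 replicate cannot shift it by a full SD. The normexp offset of 50 raises dim signals by construction, so that Sox18 came to -2.40, Sox12 to -1.97 and Sox9 to -3.29. Without the marked blocks Sox3 and 1 probe of Sox11 had no value. Every Sox probe but that of Sox9 has 1 spot per array, so a difference between samples can be set only against the scanner error.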

Other observations

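Genes that mark the tissues in which Sox genes are best known were also read in these cells. Detected on all arrays were 7 of 7 endoderm markers, 7 of 8 endothelial and 6 of 7 chondrocyte markers, and 2 of 6 fibroblast markers, beside 72.7% of all named genes, and no test was made on these counts. Several of these lists hold Sox genes themselves: Sox7 and Sox17 stand among the endoderm and endothelial markers, and Sox5 and Sox6 among the chondrocyte markers. Kdr, a receptor of endothelial growth factor, had levels of 3.72, 4.03 and 3.89, whereas Cdh5, the cadherin that defines endothelium, was not detected. Vwf, the clotting factor of endothelial cells, had levels of 0.78, 0.90 and 0.80. In the chondrocyte list Sox6 was the gene not detected, and Comp and Matn1, matrix genes of mature cartilage, had levels of -4.03 ± 0.11 and -4.98 ± 0.10. Of genes of neural progenitors and young neurons, Nes had a level of 0.32 ± 0.14, and Dcx and Fabp7 were not detected. The lists name no cell type here.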
